A study of Mus musculus with 18 samples.

Results

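The 200 circular RNAs (circRNAs) described here had lower expression in mouse cortex 7 days after an infarct than at 3 days or after sham surgery. This held for every 7-day array against every other array. The share of their signal bound by an antibody to N6-methyladenosine (m6A) lay close to sham at 3 days on the deposited scale. On a scale from all spike-in probes only 18 of the 200 stayed that close, and without sham replicate 3 only 73 did. The 200 were chosen from 12062 circRNA probes with both channels well above background on 3 or more of the 9 arrays, out of 14236 on the array. Distal middle cerebral artery occlusion (MCAO) was made permanent by electrocoagulation in C57BL/6J mice of 10 weeks, and the common carotid arteries of both sides were closed for a short time. Cortex around the infarct was collected at 3 days (3d) or 7 days (7d) after MCAO, and the sham group had the operation without the MCAO, with 3 biological replicates in each group. No genotype other than the strain was given for any group, and the time of sampling after the sham operation was not used here. RNA bound by an anti-m6A antibody (IP, Cy5) and the RNA left in the supernatant (Sup, Cy3) were treated with RNase R, which digests linear RNA, and hybridized together to 1 array per sample.

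A circRNA is formed when a splice donor is joined back to an upstream splice acceptor, so that the exons close into a ring without free ends. CircRNAs are abundant in the brain and many accumulate at synapses, and their closed form protects them from exonucleases. m6A is written by the METTL3 and METTL14 methyltransferase complex, removed by FTO and ALKBH5 and bound by readers such as the YTHDF proteins. In circRNAs it has been linked to back-splicing, export from the nucleus, decay and translation.

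Expression was the sum of IP and Sup, given as log2 over the median circRNA of the same array, and the m6A level was IP as a percent of that sum. Each probe reads 1 back-splice junction. A circRNA was kept when the mean log2 level of 3d lay within 0.3 of sham, which held for 4764 circRNAs (39.5%), and when each 7d array lay below every other array in expression, which held for 1176 (9.75%). Both held for 320, or 27.2% of those 1176 and 6.72% of those 4764. The 200 with the greatest fall were taken, where the fall is the smaller of the differences of the 7d mean from the 3d mean and from the sham mean. With the level kept and expression highest on every 7d array, there were 632. All of these values chose the members, so the expression values at 7d and the 3d level are a description of them and no test is drawn from them.

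The members are known here by probe identifier only. The host genes, chromosomal positions and junction sequences of these probes were not analysed here, and none of the 200 was among the 55 probes that could be joined to a named circRNA of the study. The arrays also carried 50 mRNA probes, of which 46 were matched to a gene, and all spots of Apoe, Mbp, Chgb and Actb, the genes of an astrocyte lipoprotein, a myelin protein, a neuronal granule protein and beta-actin, were well above background in Sup. Of the marker genes listed for the cell types of the cortex, Mbp of oligodendrocytes alone had a probe.

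Some arrays stood apart in the members. Among the sham arrays, replicate 3 had the highest expression in 179 of the 200, against 41.8% of all circRNAs, and the lowest m6A level in 190, against 72.9%. Sham replicate 1 had the highest level of the sham arrays in 186, against 56.6%. Among the 7d arrays, replicate 3 was the lowest in expression in 161, against 32.4%. By the file headers, the 3d and 7d arrays were read in 1 scan, in different rows of it, and the sham arrays in another, so scan and surgery cannot be told apart in the comparisons with sham. Values without these arrays are given beside the results that rest on them.

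The median member gave a brighter signal than the median circRNA on every array. Brightness depends on the probe as well as on the amount of RNA, so values over the array median order signals and not amounts between circRNAs. Their median expression in log2 over the array median was 1.80, 1.80 and 2.44 on the sham arrays, 2.18, 1.93 and 2.20 on the 3d arrays, and 1.41, 1.34 and 0.88 on the 7d arrays. Every 7d array was thus below the other arrays also in the median of the members, and sham replicate 3 was the highest. The group means of these medians were 2.01 ± 0.369 in sham, 2.10 ± 0.148 at 3d and 1.21 ± 0.285 at 7d (SD, n = 3). In tissue, a lower value from fewer cells of a type and from less RNA per cell cannot be told apart.

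**Figure D1:**
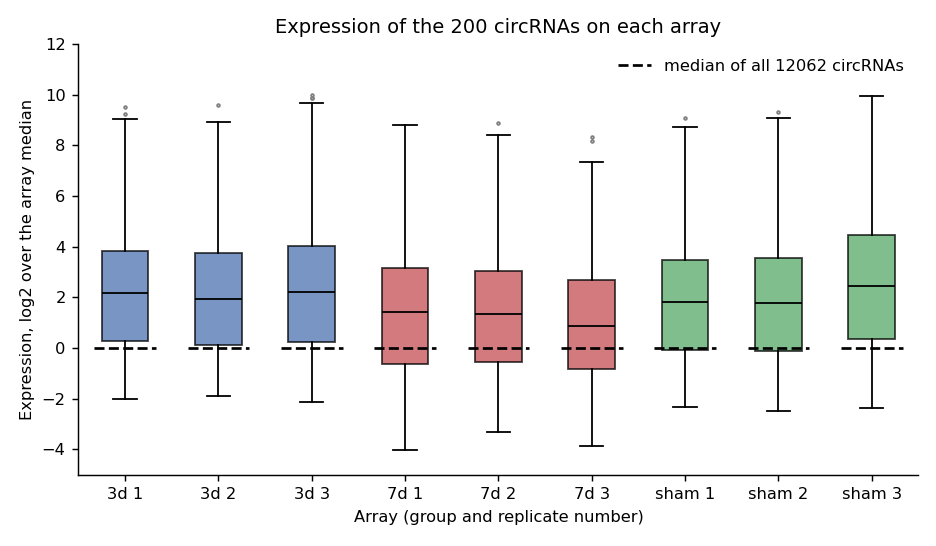
Expression of the 200 circRNAs on each of the 9 arrays, in log2 over the median circRNA of the array. Boxes give the median and quartiles of the members, whiskers reach up to 1.5 times the box height, points lie beyond, and the dashed line at 0 is the median of all 12062 circRNAs. The members' medians run from 0.88 to 1.41 on the 7d arrays and from 1.80 to 2.44 on the others.

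Between groups, the median member was lower by a log2 difference of -0.81 in 7d vs. 3d, a 1.75-fold fall, with a range from -2.26 to -0.46. Against sham the median at 7d was -0.74, a 1.67-fold fall, and without sham replicate 3 it was -0.55. These comparisons share the 7d arrays. In 3d vs. sham the median was 0.06, with 115 members above 0 and 85 below, and the expression of 3d and sham arrays did not overlap in 9 members that were higher at 3d (12.1% of all circRNAs) and in 7 that were lower (12.6%).

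The fall that ranked the members ran from 0.46 to 2.08 in log2, which is 1.37-fold to 4.24-fold, with a median of 0.66 (1.58-fold). It was more than 2-fold in 33 members and more than 3-fold in 5, and in 28 and 4 when members with IP not well above background on any 7d array were set at the bound given with the faint members. The nearer group was sham in 115 members and 3d in 85. The limit of 200 did not mark a gap in the values. Just inside it were ASCRP4007049, ASCRP4011371 and ASCRP4003143 with falls of 0.46, 0.46 and 0.46, and just outside were ASCRP4005500, ASCRP4013658 and ASCRP4008162 with 0.46, 0.45 and 0.45.

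With limma, when a call needed a change of more than 1.5-fold and an unadjusted P under 0.05, 163 members were lower in 7d vs. 3d, where 10.1% of all circRNAs were. After Benjamini-Hochberg adjustment there were 100, against 5.82%. Against sham, 151 members were lower at the unadjusted P, against 8.33%, and 33 after adjustment, against 1.53%. Without 7d replicate 3, 116 were lower in 7d vs. 3d, against 8.0% of all circRNAs, and without sham replicate 3, 79 were lower in 7d vs. sham, against 5.23%. The rule chose the members on these differences, and the counts say how far its choice and the fit overlap.

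The greatest falls were spread over faint and bright signals. ASCRP4011064 is bright, and its expression was 8.27, 7.90 and 9.41 at 3d, 6.91, 6.46 and 5.43 at 7d, and 7.07, 7.51 and 9.38 in sham. Its mean at 7d was 4.78-fold below 3d and 3.30-fold below sham, but 7d replicate 1 lay only just under sham replicate 1. ASCRP4003429 had 6.00, 5.84 and 7.00 at 3d, 4.41, 4.46 and 3.74 at 7d, and 5.03, 5.37 and 7.19 in sham. In both, replicate 3 of 3d and of sham was the highest array and replicate 3 of 7d the lowest.

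ASCRP4001359 had 8.13, 7.95 and 8.69 at 3d, 6.85, 6.99 and 6.13 at 7d, and 7.33, 7.54 and 8.82 in sham. ASCRP4012616 had 2.36, 2.02 and 2.40 at 3d, 1.40, 1.20 and 0.35 at 7d, and 2.33, 2.16 and 3.55 in sham. The 3d arrays of the latter lay close together (SD 0.209), and its 7d mean was 2.42-fold below 3d and 3.24-fold below sham. In each of the 10 members with the greatest falls except ASCRP4013107, sham replicate 3 lay at least 1 log2 unit above the other sham arrays.

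The first 2 members by rank were faint at 7d. ASCRP4012170 had 0.70, 0.51 and 0.37 at 3d, -1.53, -0.53 and -2.61 at 7d, and 0.40, 0.38 and 1.76 in sham, and its IP signal was not well above background on any 7d array. Its expression at 7d was at least 3.50-fold lower than at 3d and at least 4.38-fold lower than in sham, when the signal at 7d was set no lower than the faintest signal well above background on the same array. ASCRP4013107 was not well above background at 7d in either channel, and the same bound gave 1.57-fold and 1.35-fold. Its IP was well above background on only 2 of the 3d arrays and 1 of the sham arrays, whose signals were left as measured. Its second rank thus rests on signals not well above background.

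In all, 24 members had an IP signal not well above background on any 7d array, and in 3 of them this held for Sup too. Without the 24, the median differences of the other 176 were -0.78 in 7d vs. 3d and -0.75 in 7d vs. sham. With the 24 set at their bound, the medians over all 200 were -0.78 and -0.73. The bound was lowest in ASCRP4012934, with 3d 1.22-fold and sham 0.92-fold of the 7d value. No fall from sham was thus shown for it at the bound. The IP signal was above background on all 9 arrays in 150 members, and no member was saturated on any array. By array, it was above background in 189 to 200 members at 3d, in 178 to 193 in sham and in 155 to 170 at 7d.

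**Figure D2:**
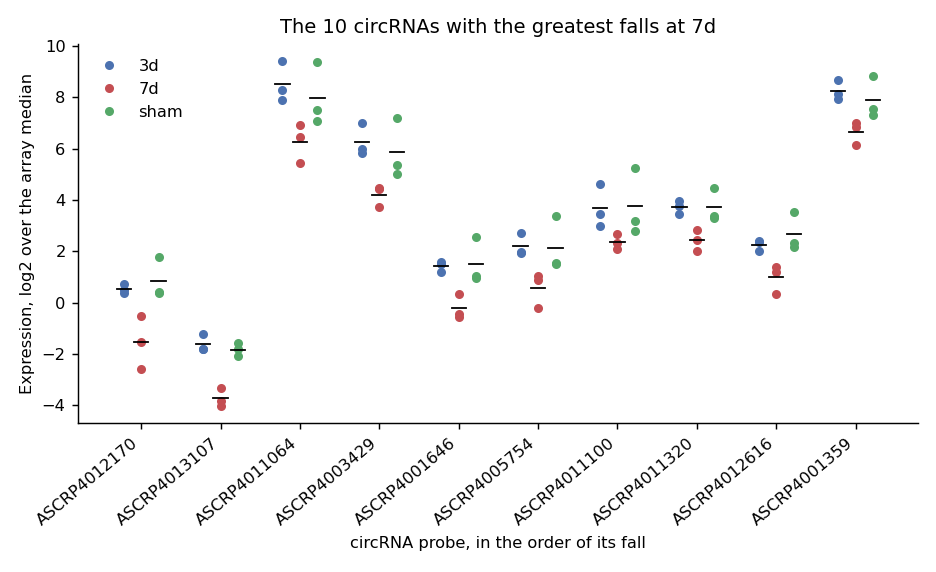
Expression, in log2 over the array median, of the 10 circRNAs with the greatest falls, in the order of the fall. Each point is 1 array and each short line the mean of 3 arrays. The 7d points lie below all others in each circRNA, as the rule required, and 1 sham array (replicate 3) often lies well above the other sham arrays.

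Both fractions were lower at 7d. Expression, which chose the members, is the sum of IP and Sup. These falls are therefore a description, and no test is drawn from them. On the spike-in scale of the deposited values, where each channel is set by RNA added to the sample, the median difference of the members in 7d vs. 3d was -1.24 in Sup and -0.76 in IP. The median circRNA differed by -0.58 in Sup and by 0.05 in IP, so the members lay 0.66 below it in Sup and 0.81 below it in IP. The order of the fractions depended on the scale: with all spike-in probes the members were at -0.53 in Sup and -0.91 in IP, and after loess at -0.93 and -1.07. Against sham, the members at 7d were at -0.84 in Sup, with 199 below 0, where the median circRNA was at -0.03. In IP they were at -0.53, with 194 below 0, where the median circRNA was at 0.01, but the members' median in IP was 0.07 after normexp background correction with an offset. The 7d arrays did not overlap with the 3d arrays in IP in 164 lower members (10.2% of all circRNAs) and with the sham arrays in 120 (19.7%).

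**Figure D3:**
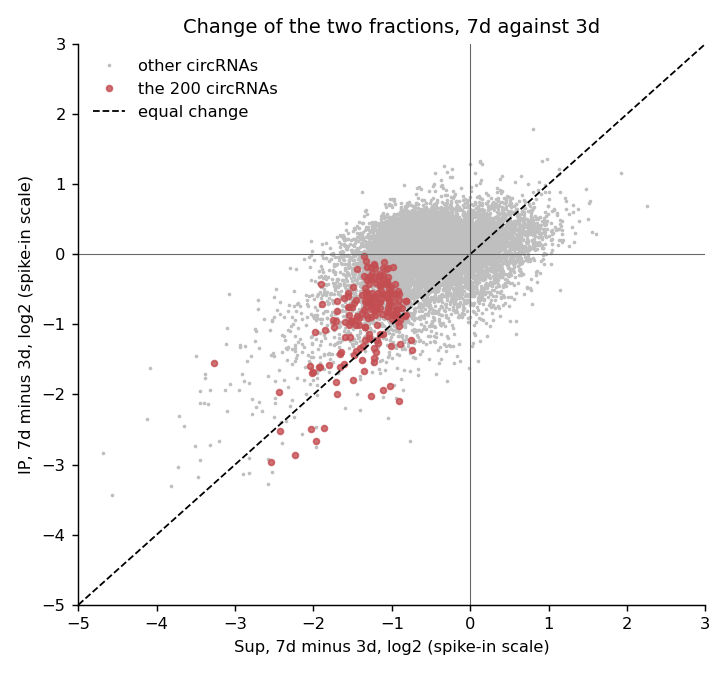
Difference of 7d minus 3d in the Sup fraction (horizontal) and in the IP fraction (vertical), both in log2 on the spike-in scale. Each point is 1 circRNA, the 200 members are in red, and the dashed line marks an equal change of both. All 200 members lie below 0 on both axes, with medians of -1.24 in Sup and -0.76 in IP, and most lie above the line on this scale.

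The median member had a lower m6A level than the median circRNA. Their median level was 26.0%, 19.7% and 13.4% on the sham arrays, where the median of all circRNAs was 39.3%, 36.8% and 30.4%. At 3d it was 19.7%, 19.4% and 15.1%, against 28.4%, 30.5% and 24.1%. At 7d it was 23.8%, 22.6% and 24.6%, against 39.0%, 36.5% and 36.7%. The members thus lay below the median circRNA on each of the 9 arrays, and the sham arrays spanned both the highest and the lowest median of the members.

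**Figure D4:**
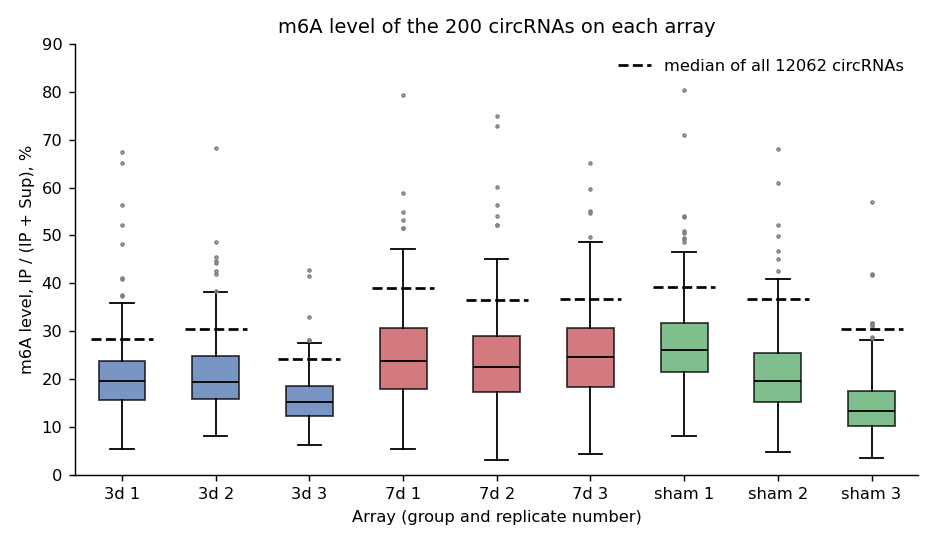
m6A level, IP as a percent of IP plus Sup, of the 200 circRNAs on each array. Boxes give the median and quartiles of the members, whiskers reach up to 1.5 times the box height, points lie beyond, and dashed lines mark the median of all 12062 circRNAs. The members' medians lie below the dashed line on all arrays, and in sham they run from 13.4% to 26.0%.

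The mean sham level of a member ran from 7.87% to 68.5%, with a median of 20.2% against 35.6% over all circRNAs. Only 2 members were above 50%, and 5 were below 10%, where 3.95% of all circRNAs were. Bright circRNAs of these arrays had lower levels in general (r = -0.22 and rho = -0.21 between mean expression and sham level over 12062 probes, which share the same arrays). The members were still lower among circRNAs of like expression: in the highest of 10 equal groups by expression their median sham level was 16.9%, against 30.2% for all circRNAs there, and in the fifth group it was 20.3% against 34.4%.

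ASCRP4002410 had the highest level, with 80.4%, 68.0% and 57.1% in sham, 65.1%, 68.3% and 41.5% at 3d, and 79.4%, 75.1% and 54.6% at 7d. ASCRP4008177 was at the low end among members with IP above background on all arrays, with 12.6%, 8.47% and 4.64% in sham, 8.82%, 8.14% and 6.21% at 3d, and 9.16%, 7.68% and 7.22% at 7d. The groups overlapped in both. In expression the first was 1.54-fold lower in 7d vs. sham and the second 1.59-fold. The next members at these ends differed more. ASCRP4005178, with a mean sham level of 49.3%, was 1.64-fold lower, and ASCRP4004348, with 9.28%, was 2.18-fold lower.

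The condition on the 3d level depended on the sham arrays and on the scale. The level of a member varied more in sham, with a median SD of 6.38 percentage points, than at 3d (2.85) or at 7d (2.21). The 3d and sham arrays overlapped in level in all 200, which the limit of 0.3 favored. Over all circRNAs they did not overlap in 40.1% that were lower at 3d and in 2.81% that were higher. The median log2 difference of 3d minus sham was -0.12 in the members. Without sham replicate 3 it was -0.37, and only 73 members stayed within 0.3, and without sham replicate 1 it was 0.12, with 152 within 0.3. The rule itself, run again without sham replicate 3, found 73 of the 200, and without sham replicate 1 it found 74.

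On the deposited scale the median circRNA was itself lower at 3d than in sham, by -0.33 in log2, and 6435 circRNAs were lower by more than 0.3. With each array's levels centered on its median circRNA, 130 members were within 0.3 of sham at 3d, where 63.8% of all circRNAs were, and 70 were above. When the 102 spike-in probes replaced the 10 probes behind the deposited values, 18 were within 0.3, where 59.7% of all circRNAs were, and 182 were above, with a median of 0.50 against 0.19 for all circRNAs. In expression, which chose the members, each 7d array was lowest in 182 members without centering (17.0% of all circRNAs), in 192 with all spike-in probes (9.63%), in 177 after quantile normalization (10.4%) and in 139 after normexp background correction with an offset (8.96%). After normexp, 187 members were within 0.3 of sham in level at 3d, where 84.5% of all circRNAs were, and 13 were below. A level unchanged at 3d therefore describes all of these circRNAs on the deposited scale and most of them after normexp. On 3 of the 4 other scales between 67 and 182 of the 200 were higher at 3d by more than 0.3, the most with all spike-in probes.

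Among circRNAs with expression lowest on every 7d array, 856 did not meet the condition on the 3d level, and 836 of these had a lower level at 3d by more than 0.3 in log2 and 20 a higher one. Their median sham level was 30.3%, against 35.6% for all circRNAs, and their median expression in sham was 0.81. The members had 20.2% and 2.05. The median sham level was 29.3% in all 4764 circRNAs with a kept level. In the 120 that met both conditions and were not taken it was 27.6%. The 632 circRNAs with a kept level and the highest expression at 7d had a median sham level of 24.0% and a median sham expression of -0.08.

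At 7d the level was above sham in 165 members, where 59.5% of all circRNAs were above sham. The median log2 difference was 0.30 in the members and 0.04 over all circRNAs. It was 0.26 in the 120 circRNAs that met both conditions and were not taken. In the 856 with expression lowest on every 7d array and the 3d level not kept it was 0.15. Among the 176 members with a measured IP signal at 7d, 153 were above sham and 23 below. The sham arrays weighed on this: without replicate 3, 113 of the 200 were above sham with a median of 0.06, and without replicate 1, 179 with a median of 0.53. In 7d vs. 3d the level was higher in 169 members, where 81.7% of all circRNAs were higher, and the medians were 0.37 and 0.37, but the members' median was -0.07 with centered levels, -0.28 with all spike-in probes and -0.11 after loess. In 7d vs. sham the members' median stayed above 0 on these scales, between 0.15 and 0.35, where the median circRNA lay between -0.04 and 0.15. All 3 arrays at 7d lay above every 3d and sham array in 20 members, where 5.71% of all circRNAs did, and below in 1, where 1.22% did.

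By limma, 35 members were called higher in level in 7d vs. 3d at the same unadjusted limits, against 24.2% of all circRNAs, and 26 after Benjamini-Hochberg adjustment, against 21.5%. Against sham, 9 were called higher at 7d at the unadjusted P, where 1.12% of all circRNAs were, and 0 after adjustment, where 0% were. Without sham replicate 1 the count in 7d vs. sham was 73, against 4.48% of all circRNAs, and without sham replicate 3 it was 0, against 0.564%. The level enters this through the same IP and Sup values as expression, so these counts are a description too.

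ASCRP4003131 had the greatest upward difference in log2 level of 7d minus sham among members with IP above background on all arrays. Its level was 26.2%, 25.4% and 10.8% in sham, 15.1%, 16.6% and 17.9% at 3d, and 39.5%, 30.6% and 36.9% at 7d. All 7d arrays were above all others, and its expression was 3.12-fold lower in 7d vs. sham. Its Sup signal differed by -1.94 in log2 and its IP signal by -0.77.

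ASCRP4010056 had a level of 17.5%, 23.5% and 9.38% in sham, 13.6%, 18.9% and 15.8% at 3d, and 32.9%, 24.4% and 29.5% at 7d, with all 7d arrays the highest. Its IP signal was 0.38 higher in 7d vs. sham while Sup differed by -0.72. ASCRP4011100, the seventh by fall, had 31.1%, 21.0% and 8.37% in sham, 17.0%, 19.3% and 10.4% at 3d, and 27.5%, 28.3% and 30.7% at 7d. Here sham replicate 1 lay above the 7d arrays, and only the 3d arrays lay wholly below them.

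Of the 100 circRNAs with the brightest signals in sham, 8 were members, and the level of 6 of these was lower at 7d than in sham. The 6 were ASCRP4011284, ASCRP4009404, ASCRP4010050, ASCRP4002866, ASCRP4011064 and ASCRP4001359, picked out after their values were seen. Their log2 differences of 7d minus sham were between -0.81 and -0.55, and without sham replicate 1 between -0.38 and -0.09. All 6 were also below 0 without each sham array in turn and on the 4 other scales. These settings reuse the arrays on which the 6 were picked for lying below 0, so their sign is no test. Of all 200 members, 1 was called lower in level in 7d vs. sham at the unadjusted limits, against 0.995% of all circRNAs. Among the other 92 of the 100, the level was lower in 28 and higher in 64. Below this rank, it was lower in 29 of 192 members. Of the 27 members among the brightest 500, the level was higher at 7d in 21 and lower in these 6 alone.

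ASCRP4011284 was the brightest member, with a signal at rank 17 of 12062 in sham. Its expression was 9.07, 9.31 and 9.93 in sham, 9.52, 9.60 and 9.97 at 3d, and 8.79, 8.89 and 8.32 at 7d, a mean fall of 1.70-fold from sham. Its level was 26.0%, 11.8% and 8.44% in sham, 12.8%, 11.8% and 14.4% at 3d, and 10.2%, 8.89% and 5.89% at 7d. The 7d arrays overlapped with sham replicate 3 and lay below every 3d array.

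ASCRP4009404 had the same course, with 23.9%, 10.6% and 7.62% in sham, 12.1% ± 1.21 (SD, n = 3) at 3d, and 9.08%, 7.98% and 4.98% at 7d. ASCRP4010050 had 22.4%, 11.1% and 7.77% in sham, 10.2%, 9.70% and 13.6% at 3d, and 9.30%, 7.68% and 5.06% at 7d. In both, as in ASCRP4011284, sham replicate 1 was far above the other sham arrays, and the 7d arrays overlapped with sham replicate 3. The bright member ASCRP4009671 differed, with 21.5%, 15.1% and 12.4% in sham and 20.8%, 19.5% and 19.7% at 7d.

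**Figure D5:**
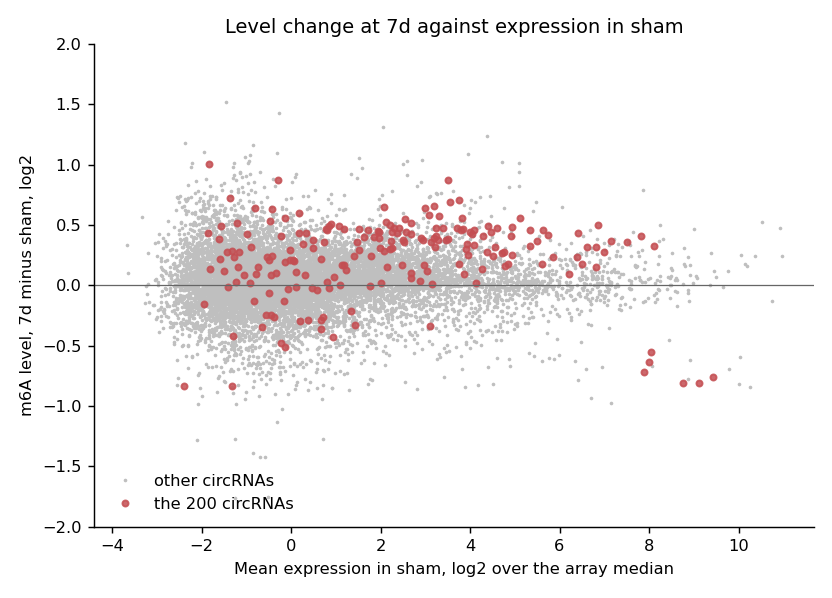
Log2 difference of the m6A level of 7d minus sham (vertical) against the mean expression in sham, in log2 over the array median (horizontal). Each point is 1 circRNA and the 200 members are in red. Most members lie above 0, 165 of 200, and 6 of the 8 brightest lie below it.

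The members were more often bright than faint. Over these 10 groups, which were made from the mean expression of all 9 arrays, the members numbered 9, 12, 10, 9, 15, 14, 16, 22, 35 and 58 from the lowest to the highest. The share of circRNAs with expression lowest on every 7d array was 2.90% in the lowest group and 12.6% in the highest, and the level at 3d was kept in 441 of 1206 in the lowest and in 603 of 1207 in the highest. The median fall was 0.73 in the 93 members of the highest 2 groups, 0.64 in the 52 of the next 3 and 0.61 in the 55 of the lower 5. Over the 200 probes, which share the same 9 arrays, mean expression and the fall were weakly related (r = 0.16, rho = 0.24), and the sham level was lower where the signal was brighter (r = -0.35, rho = -0.37).

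The median circRNA differed by -0.30 in 7d vs. sham within the highest group by expression and by 0.25 within the lowest, so that part of the difference from sham went with brightness over all circRNAs. In 7d vs. 3d, both taken in the same scan, the medians were -0.01 and -0.08. The part of this in the members' fall was not tested. The mRNA probes had a median of -0.47 in 7d vs. 3d and -0.31 in 7d vs. sham on the same scale. In 12 of the 50, every 7d array was the lowest. Whether these probes report linear RNA left after RNase R was not tested. Olfr1307 lay between 3.39 and 6.65 over the arrays, far brighter than Actb, which lay between -0.45 and 0.24. Of the 12 lowest at 7d, Olfr1307 differed by -1.52 in 7d vs. 3d and -1.53 in 7d vs. sham, and Atg3 by -0.93 and -0.93. Chgb was also among the 12 but differed by less, with -0.35 and -0.38. Its values were -1.25, -1.22 and -1.18 at 7d, -0.85, -1.13 and -0.62 at 3d, and -1.03, -0.78 and -0.70 in sham. Mbp had -0.41, -0.27 and 0.19 at 7d, -0.29, -0.61 and -0.69 at 3d, and -0.24, -0.97 and -1.04 in sham, where the groups overlapped. The part of linear RNA in the members' fall was not tested.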

How the data were processed

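Cortex RNA of 9 samples (3 per group) gave an IP and a Sup channel on 1 array each, 18 records in all. The intensity values deposited by the authors were read with Agilent Feature Extraction 11.0.1.1, and the scanner files of both channels of an array were identical. The authors turned the processed signals into the deposited log2 values by subtracting, per channel and array, a constant. The mean of 10 spike-in probes, found from the values, recovers it within 5.6e-10. These log2 values were used here. The table lists 12251 of 14236 circRNA probes, and 189 failed the filter of both channels well above background on at least 3 arrays. Groups follow the titles of the records; the descriptions of 7d replicates 2 and 3 and of sham replicate 3 carry another replicate number, on which the replicate block depends.

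Level and expression were fitted over all 9 arrays with limma 3.58.1 (lmFit and eBayes) in R 4.3.3, and a call needed a change of more than 1.5-fold and an unadjusted P under 0.05, the limits of the study, with Benjamini-Hochberg adjusted counts beside. The P values set each difference against the spread within groups, pooled over all 9 arrays and drawn by eBayes toward that of all circRNAs. With 3 samples per group, the number of arrays limits the precision. Bounds for faint signals were set per array and channel at the faintest probe well above background. The scripts were tested on simulated data. The members and lists were chosen with earlier results of these data known. CircRNAs are named as the 10 with the greatest fall, those at the limit, the 5 brightest, and those at the ends of the level and its change. Same-numbered replicates of 3d and sham had r between 0.12 and 0.42 in expression and between 0.06 and 0.33 in level. Unlike-numbered ones had r between -0.53 and 0.41 in expression and between -0.37 and 0.10 in level. In expression, 3d replicate 2 went more with sham replicate 1 (0.41) than with sham replicate 2 (0.12). Same-numbered replicates of 7d did not go with 3d (r between -0.24 and -0.02 in expression) or with sham (-0.42 to -0.28), so the comparisons with 7d were not paired. In all, 21 alternatives were set at the start. They covered 4 other scales, filters, adjusted P values, the methods' t-test, the replicate block and leaving out each array.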

Additional observations from a re-analysis of the deposited data

How the results depend on the processing

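The rule fixed the direction of expression, so its sign without an array shows nothing about stability. The members' medians of 7d minus 3d were -1.12 without centering and, without each array in turn, between -0.91 and -0.70, and of 7d minus sham between -0.89 and -0.55. Membership was less firm. The rule found 55 of the 200 again with levels centered on each array's median, 80 after normexp with an offset of 50, 5 with all spike-in probes, 41 after loess and quantile normalization, and between 73 (without sham replicate 3) and 179 (without 7d replicate 3) with an array left out, with 113 without 3d replicate 3 and 74 without sham replicate 1.

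The median level of 3d minus sham was 0.24 with centered levels, 0.50 with all spike-in probes and 0.22 after loess, and between -0.37 and 0.12 with an array left out. That of 7d minus 3d was -0.067, -0.28 and -0.11 on these scales, and between 0.22 and 0.45 with an array left out. That of 7d minus sham was between 0.06 and 0.53 with an array left out. In 7d minus 3d, the medians of IP and Sup were -0.21 and -0.78 after normexp, -1.07 and -0.93 after loess, and -0.91 and -0.53 with all spike-in probes, so IP lay below Sup on the last 2 scales. IP of 7d minus sham was 0.070 after normexp. With an array left out, IP of 7d minus 3d was between -0.82 and -0.70, Sup between -1.33 and -1.16, IP of 7d minus sham between -0.63 and -0.40, and Sup between -0.995 and -0.54.

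Members called lower in expression numbered 100 in 7d vs. 3d (5.82% of all circRNAs) and 33 in 7d vs. sham (1.53%) after Benjamini-Hochberg adjustment. In 7d vs. sham they were 91 after normexp (5.56% of all circRNAs) and 82 by the methods' t-test (5.71%). Of the 150 members well above background on all arrays, 98 were lower (7.13% of all circRNAs so filtered). Members called higher in level in 7d vs. 3d were 1 with centered levels (1.49% of all circRNAs) and 0 with all spike-in probes (0.216%) or after loess (0.489%). In 7d vs. sham they were 0 after adjustment (0%), 5 with centered levels (0.696%), 1 by the methods' t-test (0.365%) and 3 after loess (0.547%). By the methods' t-test, 149 and 82 members were lower in expression in 7d vs. 3d and vs. sham (8.12% and 5.71% of all circRNAs). In level, 35 and 1 were higher (21.2% and 0.365%). After Benjamini-Hochberg adjustment these counts were 1, 0, 21 and 0, against 0.0332%, 0%, 12.8% and 0% of all circRNAs. With an array left out, the counts lower in expression were between 116 and 173 in 7d vs. 3d and between 79 and 177 in 7d vs. sham (96 without 7d replicate 3), and those higher in level between 15 and 44 (15 without 3d replicate 3) and between 0 and 73 (3 without 7d replicate 1, 5 without 7d replicate 3). The cause of these differences was not tested.

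With the replicate number as a block, 166 and 152 members were lower in expression in 7d vs. 3d and 7d vs. sham (10.3% and 8.60% of all circRNAs). In level, 39 and 10 were higher, against 24.8% and 1.21% of all circRNAs. These counts depend on taking the numbers of the titles over those of the descriptions. No source ties the numbers to a shared batch. Median intensities were between 36.5 and 50 in IP, over a background between 15 and 22, which limits the levels of faint circRNAs.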
